A study of Mus musculus with 12 samples.

Results

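The 10 genes described here belong to the ATF4 and unfolded protein stress programmes: *Atf4*, *Ddit3*, *Trib3*, *Asns*, *Chac1*, *Sesn2*, *Ddit4*, *Hspa5*, *Xbp1* and *Herpud1*. They were chosen by name, as genes known for these programmes, and found on the array through the accession of each probe. They are 10 of the 32301 genes or transcripts on the array and 10 of the 22367 that passed a filter on dim signals, and every member had a probe. ATF4 is a transcription factor whose protein rises when cells slow general translation in answer to amino acid shortage, oxidative stress, virus RNA or unfolded protein, the so-called integrated stress response. It drives genes for amino acid supply and, when stress lasts, for cell death. The unfolded protein response of the endoplasmic reticulum (ER) shares this arm and adds others, through IRE1, which splices the *Xbp1* RNA, and through ATF6, which together raise chaperones and the machinery that removes misfolded proteins.

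RNA was measured in macrophages derived from bone marrow (BMDMs), after 7 days of growth in M-CSF. They came from wild-type (WT) mice and from KpCKO mice, which carry *Keap1* flox/flox and *LysM*-Cre, so that *Keap1*, the gene of the protein that keeps the transcription factor Nrf2 low, is deleted in myeloid cells. All mice were C57BL/6 and 8 weeks old. The cells were left untreated (Con) or were stimulated for 6 h. Stimulated cells were given LPS at 5 ng per ml together with IFNγ at 10 ng per ml (M1), or IL-4 at 10 ng per ml (M2). This made 6 groups of 2 arrays. The arrays of a group came from 2 independent cultures, each with 1 WT and 1 KpCKO mouse whose cells gave all 3 conditions. Culture 1 came from male and culture 2 from female mice, so culture and sex cannot be told apart. The Con, M1 and M2 arrays lay on a slide each, so a response to a stimulus cannot be told apart from a difference between slides, while both genotypes of a condition shared their slide.

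Levels are given as log2 of the probe intensity relative to the 75th percentile of the intensities on the same array, so that 0 is the level of that percentile. Every pair of values gives culture 1 first and culture 2 second. That percentile lay between 548 and 906 intensity units on the M1 arrays and between 966 and 1166 on the others, from 59.3% to 71.4% of probes were well above background, and no spot was saturated. The log2 difference of *Keap1*, KpCKO minus WT, was −1.46 in Con, −1.71 in M1 and −1.81 in M2, and *Nqo1*, a known Nrf2 target, was higher by 3.23, 3.50 and 3.52. All 6 macrophage markers with a probe were well above background in each group. All 10 members were well above background on every array with a usable spot, which was 11 arrays for *Sesn2* and 12 for the others. Only RNA was measured, so the protein of ATF4 and the splicing of *Xbp1* were not.

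The sequence upstream of 4 members is shown for 3 known ATF4 targets that rose in M1 in both genotypes and for the ER chaperone that was lower in KpCKO M1, because the stress factors are known to act through short elements near the start of their targets. The 250 bases before the gene start come from RefSeq (GRCm38.p6), 5′ to 3′ on the strand of the gene. Capitals mark every match, on either strand, to the amino acid response element core TGATGNAA, the ER stress element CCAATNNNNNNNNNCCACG, its 3′ part CCACG, the unfolded protein response element core TGACGTG and the antioxidant response element TGACNNNGC or TGAGNNNGC, where N is any base. The CCACG matches include those inside the full ER stress element. *Asns* lies at chr6:7693210-7693459 on the minus strand, *Chac1* at chr2:119350992-119351241 on the plus strand, *Trib3* at chr2:152344061-152344310 on the minus strand and *Hspa5* at chr2:34771840-34772089 on the plus strand.
Asns: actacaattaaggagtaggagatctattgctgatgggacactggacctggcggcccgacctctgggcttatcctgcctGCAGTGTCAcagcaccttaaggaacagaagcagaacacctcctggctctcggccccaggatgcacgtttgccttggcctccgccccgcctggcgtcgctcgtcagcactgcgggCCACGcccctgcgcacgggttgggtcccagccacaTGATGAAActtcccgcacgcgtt
Chac1: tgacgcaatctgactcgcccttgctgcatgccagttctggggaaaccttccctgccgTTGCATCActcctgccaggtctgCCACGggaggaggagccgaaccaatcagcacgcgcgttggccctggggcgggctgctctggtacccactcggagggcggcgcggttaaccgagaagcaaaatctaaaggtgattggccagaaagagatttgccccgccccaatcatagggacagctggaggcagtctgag
Trib3: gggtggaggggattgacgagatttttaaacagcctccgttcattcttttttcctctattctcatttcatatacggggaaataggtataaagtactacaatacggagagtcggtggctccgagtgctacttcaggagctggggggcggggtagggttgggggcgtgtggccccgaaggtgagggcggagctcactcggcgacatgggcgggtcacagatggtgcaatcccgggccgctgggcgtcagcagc
Hspa5: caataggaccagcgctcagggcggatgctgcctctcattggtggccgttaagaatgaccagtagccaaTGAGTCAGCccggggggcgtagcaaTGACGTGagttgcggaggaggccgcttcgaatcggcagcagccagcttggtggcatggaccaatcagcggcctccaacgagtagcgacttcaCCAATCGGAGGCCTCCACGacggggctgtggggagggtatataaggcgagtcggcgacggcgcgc

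In the upstream sequences of the 10 members, TGATGNAA was found in *Asns*, *Chac1* and *Herpud1* and in 3.45% of 32851 promoters in all. The match of *Asns* ended 16 bases before the gene start (TGATGAAA) and that of *Chac1* lay on the opposite strand. The full ER stress element was found in *Hspa5* and in 0.113% of all promoters, and TGACGTG in *Hspa5* and in 1.65%. The short CCACG was present in 7 of 10 members and in 28.3% of all promoters. The antioxidant response element, which Nrf2 is known to bind, was found as TGACNNNGC in *Asns*, *Sesn2* and *Herpud1*, against 10.2% of all promoters, and as TGAGNNNGC in *Hspa5*, against 14.4%. No letters of these kinds were in the window of *Trib3*, *Ddit3* or *Xbp1*. A match is a run of letters and not a measured binding site.

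The RNA of ATF4 and of 3 genes that it is known to control was higher in M1 than in Con in both genotypes. *Asns*, the enzyme that makes asparagine, was higher by 2.71 ± 0.17 (log2, SE) in WT and by 3.12 ± 0.17 in KpCKO. *Chac1*, which breaks down glutathione, was higher by 2.97 ± 0.48 and 3.90 ± 0.48, and *Trib3*, a pseudokinase that restrains ATF4 and CHOP, by 1.75 ± 0.38 and 2.63 ± 0.38. *Atf4* itself was higher by 1.32 ± 0.16 and 1.61 ± 0.16. By the limma test, with the Benjamini-Hochberg adjusted p held to 0.05, 5 of 10 members were higher and 0 lower in WT M1, where 34.5% of all genes tested were higher and 28.7% lower. In KpCKO M1, 4 members were higher and 1 was lower, where 24.8% of all genes were higher and 25.4% lower. The median difference of the members was 0.77 in WT and 0.73 in KpCKO, beside 0.13 and 0.03 over all genes. The M1 and Con groups did not overlap for 5 members that were higher and 3 lower in WT, against 44.0% and 35.8% of all genes, and for 5 higher and 2 lower in KpCKO, against 35.5% and 33.2%.

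The calls of *Atf4*, *Trib3*, *Asns* and *Chac1* in M1 remained on leaving out any 1 array of the groups compared, in both genotypes. Without the culture term in the model, *Asns* alone passed in WT (limma, adjusted p = 0.00670). In KpCKO, *Asns*, *Chac1* and, as lower, *Xbp1* did (limma, adjusted p = 0.00481, 0.0484 and 0.0466). By the methods' unpaired t-test after adjustment 0 members passed in either genotype (without adjustment, 0 in WT and 1 in KpCKO). That t-test has no culture term, and the paper called its array genes by fold change instead.

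The level of *Atf4* in WT was 2.23 and 1.56 in Con, 3.56 and 2.86 in M1 and 2.94 and 2.25 in M2, and in KpCKO it was 2.48 and 1.55 in Con, 4.21 and 3.04 in M1 and 3.03 and 1.87 in M2. Both M1 groups lay wholly above the Con group of their genotype, and culture 1 was above culture 2 in each group. The M1 response was 2.49-fold in WT (limma, adjusted p = 0.000451) and 3.06-fold in KpCKO (adjusted p = 0.000293). *Atf4* was also the member that passed in M2, by 0.70 ± 0.16 or 1.63-fold in WT (limma, adjusted p = 0.0313), while KpCKO gave 0.44 ± 0.16 (adjusted p = 0.144).

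WT cells had an *Asns* level of 2.75 and 2.19 in Con, 5.81 and 4.54 in M1 and 3.52 and 2.63 in M2, and KpCKO cells one of 3.03 and 2.11 in Con, 6.20 and 5.18 in M1 and 3.46 and 2.30 in M2. The 4 M1 arrays stood above all 8 others, and no M1 group overlapped its Con group. The response to M1 was 6.52-fold in WT (limma, adjusted p = 2.41e-05) and 8.71-fold in KpCKO (adjusted p = 2.70e-05). In M2 the difference was 0.60 ± 0.17 in WT (limma, adjusted p = 0.0530) and 0.31 ± 0.17 in KpCKO (adjusted p = 0.291), past the test in neither.

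*Chac1* spanned 6.70 on the log2 scale over the arrays, the widest range of the 10 members. Its level in WT was −2.85 and −3.65 in Con, 1.09 and −1.65 in M1 and −0.80 and −2.44 in M2, and in KpCKO it was −1.34 and −3.09 in Con, 3.05 and 0.32 in M1 and −0.03 and −2.68 in M2. The M1 arrays were above the Con arrays within each genotype without overlap, although the cultures of WT M1 lay 2.74 apart. The M1 response was 7.84-fold in WT (limma, adjusted p = 0.00154) and 14.9-fold in KpCKO (adjusted p = 0.000645). The M2 response of WT, 1.63 ± 0.48, did not pass (limma, adjusted p = 0.0622).

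For *Trib3* the WT level was −0.35 and −1.63 in Con, 1.94 and −0.42 in M1 and 0.33 and −1.33 in M2, and the KpCKO level was 0.26 and −1.08 in Con, 3.66 and 0.78 in M1 and 1.10 and −0.95 in M2. In WT the M1 and Con groups overlapped, since the WT M1 array of culture 2 lay below the WT Con array of culture 1, and in KpCKO they did not. Within each culture M1 was higher than Con, by 2.30 and 1.21 in WT and by 3.39 and 1.86 in KpCKO. The M1 response was 3.37-fold in WT (limma, adjusted p = 0.00608) and 6.17-fold in KpCKO (adjusted p = 0.00134). A second probe of *Trib3* gave M1 responses of 1.69 in WT and 2.54 in KpCKO, beside the 1.75 and 2.63 of the probe used.

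**Figure D1:**
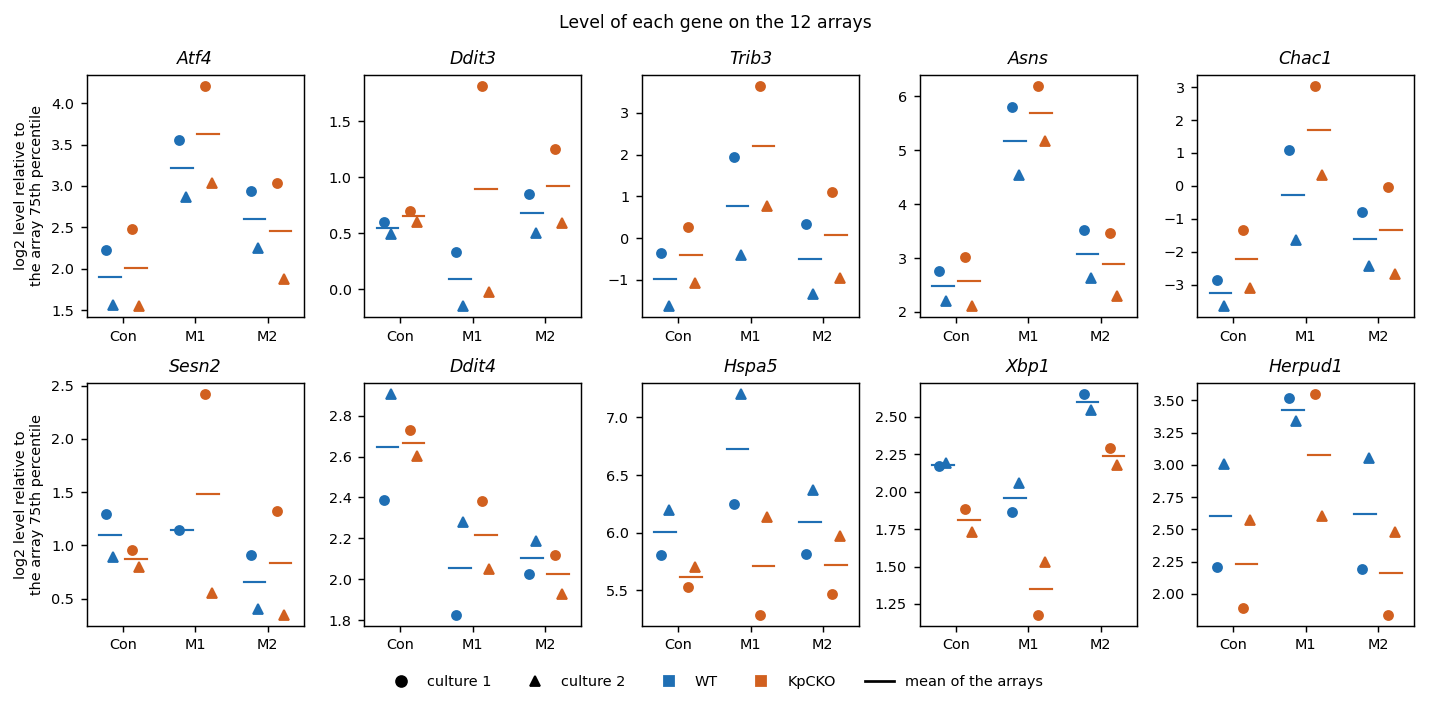
Level of each member on the 12 arrays (log2 intensity relative to the 75th percentile of the array; each panel has its own vertical scale) in Con, M1 and M2, with WT in blue and KpCKO in orange, culture 1 as circles, culture 2 as triangles and the mean of the arrays as a bar. The 4 M1 arrays of *Asns* stand above all others, and *Hspa5* in M1 is higher in WT than in KpCKO in both cultures; the WT M1 group of *Sesn2* has 1 array.

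*Ddit3*, which encodes the stress factor CHOP, did not pass the test in M1 cells of either genotype. Its level was 0.60 and 0.49 in Con, 0.33 and −0.15 in M1 and 0.85 and 0.50 in M2 in WT, and 0.70 and 0.60 in Con, 1.82 and −0.03 in M1 and 1.25 and 0.59 in M2 in KpCKO. The KpCKO M1 array of culture 1 was the highest of the 12, while the other 3 M1 arrays were below all Con arrays. The M1 differences were −0.45 ± 0.40 in WT (limma, adjusted p = 0.353) and 0.24 ± 0.40 in KpCKO (adjusted p = 0.641). Left out of the model, the KpCKO M1 array of culture 2 made the KpCKO difference 0.998 (adjusted p = 0.0139), with culture 1 as the single KpCKO M1 array.

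*Sesn2* and *Ddit4*, both of which restrain the growth kinase mTOR, did not pass the test in M1 or M2 in the model used here, although *Ddit4* in WT M1 passed under 9 of 17 alternatives. *Sesn2* in KpCKO was 0.95 and 0.80 in Con, 2.42 and 0.55 in M1 and 1.32 and 0.35 in M2, and in WT it was 1.30 and 0.89 in Con and 0.91 and 0.41 in M2. In M1 the WT value was 1.14 in culture 1, and the spot of culture 2 was an outlier on its array and was left out, so that the fit of WT M1 rests on 1 array. Its M1 differences were −0.34 ± 0.47 in WT (limma, adjusted p = 0.551) and 0.61 ± 0.41 in KpCKO (adjusted p = 0.264), the latter becoming 1.29 (adjusted p = 0.0189) with culture 1 as the single KpCKO M1 array. *Ddit4* in WT was 2.39 and 2.90 in Con, 1.83 and 2.28 in M1 and 2.03 and 2.19 in M2, and in KpCKO it was 2.73 and 2.60 in Con, 2.38 and 2.05 in M1 and 2.12 and 1.93 in M2. The 8 stimulated arrays of *Ddit4* were below the Con arrays of their genotype. None of its 4 responses passed limma's test, with the lowest adjusted p, 0.0557, in WT M1 (−0.59 ± 0.23). The alternatives under which it passed as lower include quantile normalization (−0.86, adjusted p = 0.0134) and normexp (−0.87, adjusted p = 0.0105), and, over the 16 with an adjusted p, that p ran from 0.0105 to 0.333.

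Of the 3 ER genes, *Hspa5* passed in WT M1 and *Xbp1* in KpCKO M1, in opposite directions. *Hspa5*, the main ER chaperone BiP, rose by 0.72 ± 0.19 or 1.65-fold in WT M1 (limma, adjusted p = 0.0136) and differed by 0.10 ± 0.19 in KpCKO M1 (adjusted p = 0.697). The WT arrays gave 5.81 and 6.20 in Con, 6.25 and 7.20 in M1 and 5.82 and 6.37 in M2, and the KpCKO arrays 5.53 and 5.70 in Con, 5.29 and 6.13 in M1 and 5.47 and 5.97 in M2. WT M1 lay above WT Con by a small gap, and KpCKO M1 overlapped KpCKO Con. The WT rise depended on the scaling: with quantile normalization, under which the median of all genes moved from 0.13 to −0.08, it was −0.13 (limma, adjusted p = 0.492). Leaving out culture 2 of WT Con or of WT M1 gave 0.62 and 0.50, neither past the test (adjusted p = 0.0910 and 0.0882), nor did it pass without the culture term (0.155) or with the WT Con and M1 arrays alone in the model (0.0722).

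The level of *Xbp1*, whose product is a factor of the unfolded protein response, was 2.17 and 2.19 in Con, 1.86 and 2.06 in M1 and 2.65 and 2.55 in M2 in WT, and 1.88 and 1.73 in Con, 1.18 and 1.53 in M1 and 2.29 and 2.18 in M2 in KpCKO. The groups of each genotype did not overlap, with M2 highest and M1 lowest. The fall in KpCKO M1, by −0.46 ± 0.14, passed limma's test (adjusted p = 0.0354), that in WT M1 did not (−0.22 ± 0.14, adjusted p = 0.216), and the M2 differences of 0.42 ± 0.14 in WT and 0.43 ± 0.14 in KpCKO did not (adjusted p = 0.0969 and 0.115). The KpCKO fall was lost on leaving out the KpCKO Con or M1 array of culture 1 or the Con array of culture 2, and under 5 other alternatives.

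*Herpud1*, a membrane protein of the pathway that removes misfolded ER proteins, stood in WT at 2.21 and 3.01 in Con, 3.52 and 3.34 in M1 and 2.19 and 3.05 in M2, and in KpCKO at 1.89 and 2.57 in Con, 3.55 and 2.61 in M1 and 1.84 and 2.48 in M2. The M1 arrays were above the Con arrays within each genotype, but in KpCKO culture 2 the gap to Con was 0.04. Its M1 differences, 0.82 ± 0.44 in WT and 0.85 ± 0.44 in KpCKO, did not pass limma's test (adjusted p = 0.143 and 0.151).

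**Figure D2:**
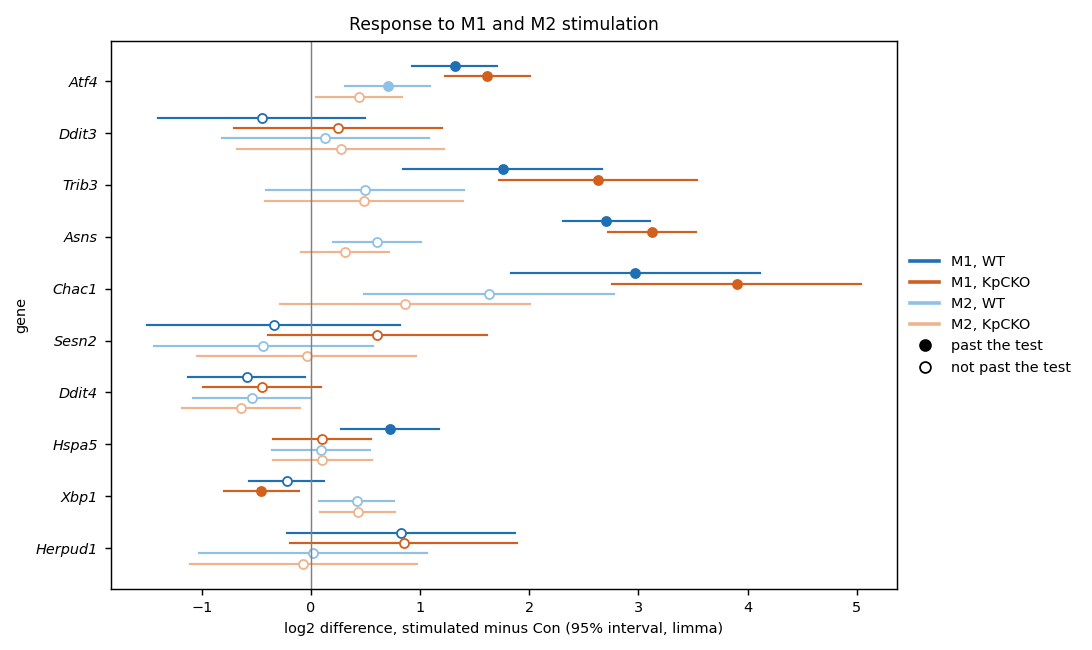
Log2 difference of each member between stimulated and Con cells (horizontal axis, with its 95% interval from limma) for M1 and M2 in WT (blue) and KpCKO (orange); filled points passed the test. *Atf4*, *Trib3*, *Asns* and *Chac1* are filled in M1 for both genotypes, and *Atf4* in WT is the single filled point of M2.

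After IL-4 a single member passed the test. In WT M2, 1 of 10 members was higher and 0 lower, where 16.8% of all genes passed in either direction. In KpCKO M2, 0 members passed limma's test, with 3 at an unadjusted p under 0.05 and 2 by the methods' t-test without adjustment, where 10.2% of all genes passed. The M2 and Con groups did not overlap for 3 members that were higher and 1 lower in WT, against 29.2% and 30.5% of all genes, and for 1 and 1 in KpCKO, against 24.6% and 21.6%. The median difference of the members was 0.27 in WT and 0.29 in KpCKO, beside −0.01 and 0.01 over all genes. The *Atf4* call in WT M2 was lost on leaving out the WT Con array of culture 1 or either WT M2 array.

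KpCKO and WT differed upward for *Trib3* and *Chac1* and downward for *Hspa5* and *Xbp1* in M1, while no member passed in Con or M2. In M1, *Trib3* was higher in KpCKO by 1.45 ± 0.38 or 2.74-fold (limma, adjusted p = 0.0460), by 1.71 in culture 1 and 1.19 in culture 2. *Chac1* was higher by 1.96 ± 0.48 or 3.90-fold (limma, adjusted p = 0.0389), by 1.95 and 1.97. *Hspa5* was lower by 2.02-fold (log2 difference −1.01 ± 0.19, limma, adjusted p = 0.0187), with −0.96 and −1.06 in the cultures. *Xbp1* was lower by 1.52-fold (log2 difference −0.61 ± 0.14, limma, adjusted p = 0.0362), with −0.68 and −0.53. The KpCKO and WT M1 groups of *Hspa5* and *Xbp1* did not overlap, and those of *Trib3* and *Chac1* did, as the cultures lay further apart than the genotypes. Groups without overlap were 0 for members higher in KpCKO M1 and 2 for those lower, against 20.0% and 30.4% of all genes.

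Thus 2 of 10 members were higher and 2 lower in KpCKO M1, where 7.41% of all genes tested were higher and 8.59% lower. The members' median difference was 0.46, beside −0.09 over all genes. *Atf4* differed by 0.41 ± 0.16 (limma, adjusted p = 0.129) and *Asns* by 0.51 ± 0.17 (adjusted p = 0.0829), both higher in KpCKO in both cultures but not past the test. *Ddit3* differed by 0.80 ± 0.40 (limma, adjusted p = 0.204), by 1.48 in culture 1 and 0.12 in culture 2, and *Herpud1* by −0.35 ± 0.44 (adjusted p = 0.607). These calls were fragile: without the WT M1 array of culture 2 or the KpCKO M1 array of culture 1 none of the 4 passed, without the WT M1 array of culture 1 *Chac1* and *Hspa5* did, and without the KpCKO M1 array of culture 2 *Trib3*, *Hspa5*, *Xbp1* and *Ddit3* did. With normexp background correction, without the culture term, or within the M1 slide alone (adjusted p between 0.159 and 0.177), none passed. The sign of each of the 4 differences was the same in every alternative run.

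In Con, 0 of 10 members passed limma's test, with 1 at an unadjusted p under 0.05 and 1 by the methods' t-test without adjustment, where 2.21% of all genes passed. In M2 the counts were also 0, 1 and 1, where 1.93% of all genes passed. *Chac1* was higher in KpCKO Con by 1.04 ± 0.48 (limma, adjusted p = 0.412), by 1.51 in culture 1 and 0.56 in culture 2. *Xbp1* was lower by −0.37 ± 0.14 in Con and −0.36 ± 0.14 in M2 (limma, adjusted p = 0.312 and 0.321), and its KpCKO and WT groups did not overlap in Con, M1 or M2. Groups without overlap were 1 higher and 2 lower in Con, against 19.2% and 17.7% of all genes, and 0 higher and 1 lower in M2, against 20.8% and 16.9%.

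Over Con, M1 and M2 together, the same 4 members passed, in a model that counts the arrays of a mouse as independent. *Trib3* was higher in KpCKO by 0.87 ± 0.22 (limma, adjusted p = 0.0391) and *Chac1* by 1.09 ± 0.28 (adjusted p = 0.0398). *Hspa5* was lower by −0.59 ± 0.11 (limma, adjusted p = 0.0140) and *Xbp1* by −0.45 ± 0.08 (adjusted p = 0.0142). Here 8.61% of all genes were higher and 8.55% lower. The calls of *Trib3* and *Chac1* were lost on leaving out any one of 9 of the 12 arrays; those that kept them left out the WT Con array of culture 2, the WT M1 array of culture 1 or the KpCKO M1 array of culture 2. *Hspa5* lost its call without the WT Con array of culture 1, and *Xbp1* without that array or the WT M2 array of culture 1. With normexp *Hspa5* alone passed (limma, adjusted p = 0.0494), and without the culture term *Xbp1* alone (0.0207). Without a filter on dim signals *Hspa5* and *Xbp1* passed (limma, adjusted p = 0.0288 and 0.0314). By the methods' t-test *Hspa5* alone passed before adjustment and 0 members after it. That t-test pooled the Con, M1 and M2 arrays of a genotype without a term for stimulus, so differences between stimuli entered its spread.

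Whether the M1 response itself differed between the genotypes was tested as an interaction. By limma 0 of 10 members passed, 0 at an unadjusted p under 0.05, where 0.0716% of all genes passed. *Hspa5* came nearest, with a response smaller in KpCKO by a log2 difference of −0.63 ± 0.27 (adjusted p = 0.313), while *Chac1* gave 0.93 ± 0.68 (adjusted p = 0.521) and *Trib3* 0.87 ± 0.54 (adjusted p = 0.454). For the M2 response 0 members passed, 0 at an unadjusted p under 0.05, where 0.00894% of all genes passed. A difference between KpCKO and WT that was particular to M1 was therefore not shown for these genes.

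**Figure D3:**
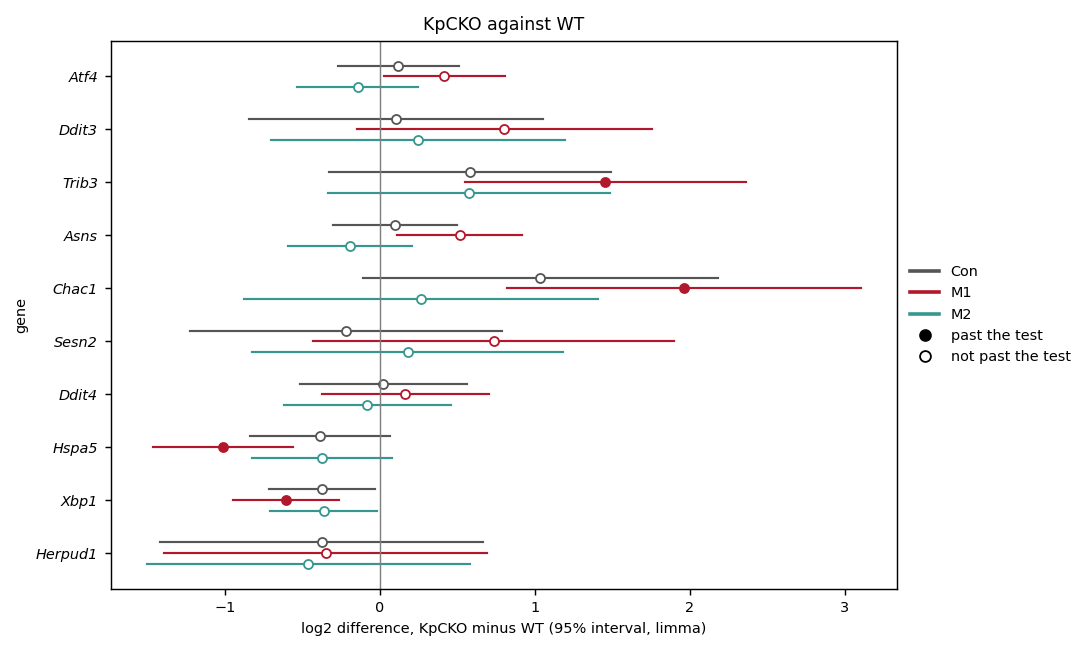
Log2 difference of each member between KpCKO and WT (horizontal axis, with its 95% interval from limma) in Con, M1 and M2; filled points passed the test. In M1, *Trib3* and *Chac1* lie to the right of 0, and *Hspa5* and *Xbp1* to the left.

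The sum of the dendritic cell markers was higher in KpCKO than in WT in Con, M1 and M2. Such a sum can rest on a single bright marker, and the markers were not compared gene by gene. The summed level of the 4 dendritic cell markers, in multiples of the 75th percentile, was 1.31 and 1.44 in WT Con against 14.8 and 7.71 in KpCKO Con, 6.57 and 5.55 in WT M1 against 19.0 and 12.6 in KpCKO M1, and it ranged from 5.61 to 8.62 in WT M2 and from 17.4 to 26.5 in KpCKO M2. Of these 4 markers, *Cd209a* and *Zbtb46* were not above background on either WT Con array and *Cd209a* on no M1 array. The sum of the fibroblast markers was higher in KpCKO than in WT in culture 1, from 9.24 to 13.8 against 6.22 to 8.74, and in culture 2 it ran from 4.78 to 6.73 in KpCKO and from 5.78 to 9.72 in WT. Those of T and B cell markers were at most 0.566 and 0.127 on any array. The sum of the 6 macrophage markers was lower in KpCKO than in WT, from 496 to 562 against 665 to 804 in M1. In such bulk RNA, fewer cells of a type and less RNA per cell cannot be told apart, and the part of these markers in the genotype differences was not tested.

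The culture was the other axis along which the members moved, a comparison that was added after the values had been seen. *Atf4*, *Ddit3*, *Trib3*, *Asns* and *Chac1* were higher in culture 1 in 6 of 6 groups, and *Sesn2* in 5 of 5 with both arrays, while *Hspa5* was lower in 6 of 6; over all genes 14.0% were higher and 13.8% lower in all 6 groups. By the culture term of the limma model *Chac1* was higher in culture 1 by 2.05 ± 0.28 (adjusted p = 0.00804). *Trib3* was higher by 1.93 ± 0.22 (limma, adjusted p = 0.00613), *Asns* by 0.97 ± 0.10 (adjusted p = 0.00527) and *Atf4* by 0.88 ± 0.10 (adjusted p = 0.00563). *Hspa5* was lower by −0.57 ± 0.11 (limma, adjusted p = 0.0186). Thus 4 members were higher and 1 lower, where 9.08% of all genes were higher and 9.35% lower. Each culture was a single batch of 1 WT and 1 KpCKO mouse, and the model counts its arrays as independent. The p-values therefore do not measure how far further cultures would vary.

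The gap between the cultures of *Trib3* ranged from 1.27 in WT Con to 2.88 in KpCKO M1, which is larger than its genotype difference in M1. *Ddit3* showed its widest gap, 1.85, in KpCKO M1, and gaps of 0.09 to 0.67 in the other groups. The summed level of 7 neutrophil markers was 13.0 to 16.5 on the arrays of culture 1 and 3.15 to 9.76 on those of culture 2, with *Elane* not above background in any group. The fibroblast sum of KpCKO was 9.24 to 13.8 in culture 1 and 4.78 to 6.73 in culture 2, without overlap, while that of WT overlapped, and the part of these markers in the culture difference was not tested. Sex and the mice go with culture here and cannot be told apart, and neither could anything else that differed between the cultures.

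**Figure D4:**
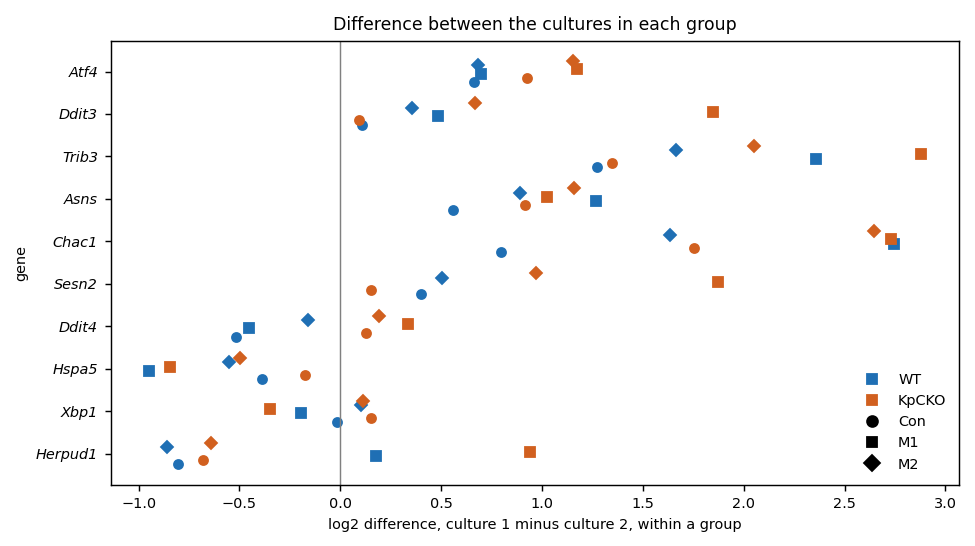
Log2 difference between culture 1 and culture 2 within each of the 6 groups (horizontal axis), for each member, with WT in blue, KpCKO in orange and the stimulus by symbol; *Sesn2* has 5 points because 1 WT M1 spot was left out. All points of *Atf4*, *Ddit3*, *Trib3*, *Asns* and *Chac1* lie to the right of 0 and all points of *Hspa5* to the left.

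The other genes of the pathways were taken from 7 lists, whose counts are to be read against the shares of all genes, 34.5% higher and 28.7% lower for the M1 response of WT, 24.8% and 25.4% for that of KpCKO, and 7.41% and 8.59% for KpCKO against WT in M1. Of 18 genes tested for amino acid synthesis and uptake, some of them known ATF4 targets, 9 were higher and 2 lower in WT M1. In KpCKO M1, 10 of them were higher and 1 was lower. The median difference was 1.21 in WT and 1.48 in KpCKO, beside 0.13 and 0.03 over all genes. The cystine carrier *Slc7a11*, also a known Nrf2 target, rose by 5.37 ± 0.33 in WT M1 (limma, adjusted p = 2.34e-05), and *Pck2*, the mitochondrial enzyme that makes phosphoenolpyruvate, fell by 2.23 ± 0.56 (adjusted p = 0.0116). The serine enzyme *Psat1* rose by 5.06 ± 0.26 in WT M1 (limma, adjusted p = 1.26e-05). In KpCKO M1 the largest rise was that of *Mthfd2*, the mitochondrial folate enzyme, by 3.85 ± 0.29 (limma, adjusted p = 9.25e-05).

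Between the genotypes in M1, 4 of these 18 genes were higher in KpCKO and 1 was lower, with a median of 0.64 beside −0.09 over all genes, of which 7.41% were higher and 8.59% lower. The glycine carrier *Slc6a9* was higher by 3.31 ± 0.31 (limma, adjusted p = 0.00204), and *Psat1* was lower, with a difference of −1.27 ± 0.26 (adjusted p = 0.0249). In Con, where 2.21% of all genes passed, 2 were higher, *Slc7a11* by 3.17 ± 0.33 (limma, adjusted p = 0.00656) and *Slc6a9* by 2.03 ± 0.31 (adjusted p = 0.0285). In M2, where 1.93% of all genes passed, *Slc7a11* alone passed, by 2.83 ± 0.33 (limma, adjusted p = 0.0103).

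Of 21 aminoacyl-tRNA synthetases and partners, which charge tRNAs with amino acids, 10 were higher and 4 lower in WT M1, against 34.5% and 28.7% of all genes, and 13 higher and 4 lower in KpCKO M1, against 24.8% and 25.4%. *Wars*, which is known to be induced by IFNγ, rose by 2.91 ± 0.40 in WT (limma, adjusted p = 0.000676), and *Xpot*, the export factor of tRNAs, fell by 1.47 ± 0.20 (adjusted p = 0.000643). Between the genotypes in M1, 5 were higher in KpCKO and 0 lower, against 7.41% and 8.59% of all genes, with the largest difference in *Eprs*, 0.80 ± 0.14 (limma, adjusted p = 0.0152).

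Of 11 partners and downstream regulators of ATF4, WT M1 had 5 higher and 1 lower and KpCKO M1 had 2 higher and 1 lower, where in KpCKO the share higher was below the 24.8% of all genes. *Nupr1*, a stress-induced chromatin protein, rose by 4.23 ± 0.30 in WT M1 (limma, adjusted p = 3.86e-05). *Atf5*, a relative of *Atf4*, was the gene that passed between the genotypes in M1, with KpCKO higher by 1.02 ± 0.24 (limma, adjusted p = 0.0338). Of 14 genes that control the integrated stress response, 5 were higher and 6 lower in WT M1, the share higher being near the 34.5% of all genes and the share lower above their 28.7%. Among the kinases that start it, *Eif2ak2*, the sensor of double-stranded RNA and an interferon-induced gene, rose by 4.13 ± 0.34 in WT M1 (limma, adjusted p = 7.23e-05), while *Eif2ak3*, the ER stress sensor PERK, fell by 1.69 ± 0.17 (adjusted p = 0.000174). When the genotypes were compared in M1, 1 of the 14 control genes was higher and 5 were lower in KpCKO. The shares of all genes were 7.41% and 8.59%, and the median of the list was 0.09 beside −0.09 over all genes. The largest fall was that of *Eif2ak2*, with a difference of −1.31 ± 0.34 (limma, adjusted p = 0.0447). The gene that was higher was *Eif2ak4*, the sensor of uncharged tRNA, by 0.78 ± 0.12 (limma, adjusted p = 0.00977). Against Con, *Eif2ak4* was lower in M1 in both genotypes. The differences were −1.49 ± 0.12 in WT and −1.05 ± 0.12 in KpCKO (limma, adjusted p = 5.91e-05 and 0.000432).

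In the ER lists, the genes that passed between the genotypes in M1 were lower in KpCKO. Of 18 chaperones and folding enzymes, 6 were higher and 2 lower in WT M1, the share higher being near the 34.5% of all genes. In KpCKO M1 against WT M1, 0 were higher and 3 lower, where 8.59% of all genes were lower, and the median was −0.33 beside −0.09 over all genes. *Pdia6*, a disulfide isomerase, was lower in KpCKO M1, with a difference of −0.91 ± 0.16 (limma, adjusted p = 0.0168). Of 22 genes of ER degradation and transport, 12 were higher and 3 lower in WT M1, against 34.5% and 28.7% of all genes. Between the genotypes in M1, 0 of them were higher and 4 lower in KpCKO, against 7.41% and 8.59%, with a median of −0.18. *Derl3*, a channel protein of this pathway, was lower in KpCKO M1, with a difference of −1.16 ± 0.21 (limma, adjusted p = 0.0159), and *Edem1*, which marks glycoproteins for degradation, with −0.79 ± 0.14 (adjusted p = 0.0149). Of 9 sensors of unfolded protein and their proteases, 3 were higher and 3 lower in WT M1, shares near those of all genes, and 0 passed between the genotypes in M1, with 1 at an unadjusted p under 0.05. Within the M1 slide alone, 0 genes of the whole array passed limma's test between the genotypes, with 5257 at an unadjusted p under 0.05, so the M1 genotype calls of listed genes rest on the model of all arrays.

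**Figure D5:**
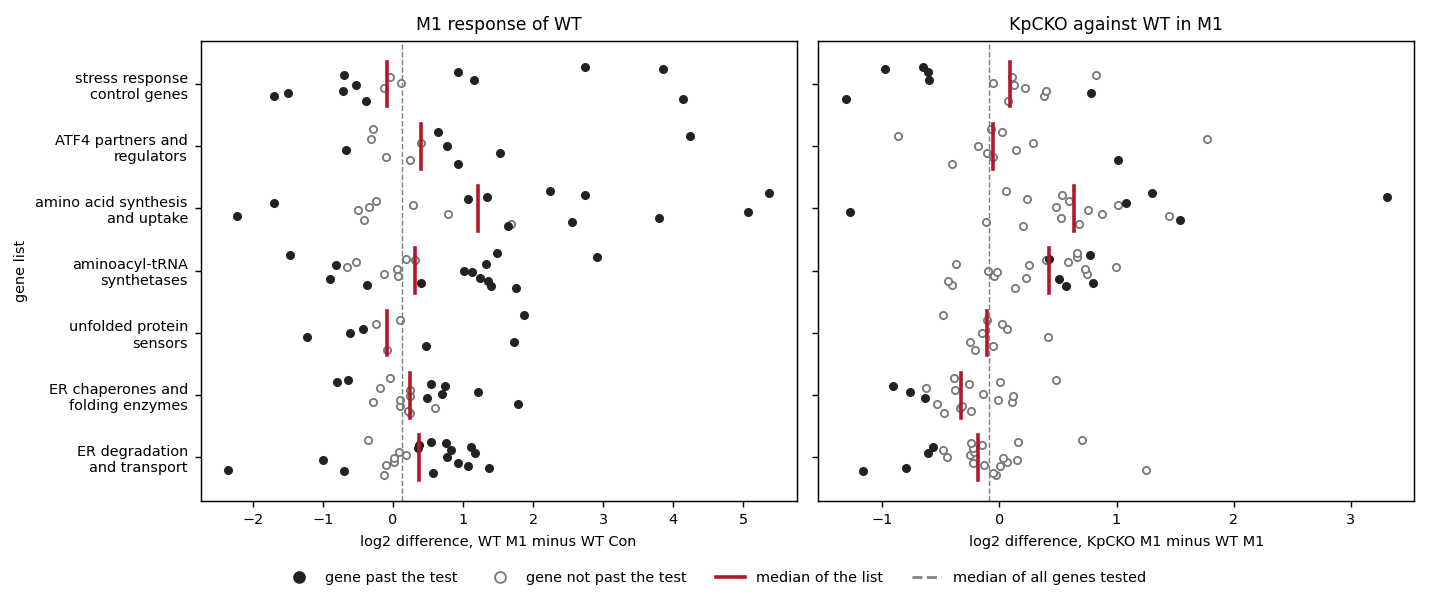
Log2 difference of each gene of the 7 lists (points, filled where past the limma test) in WT M1 against WT Con (left) and in KpCKO M1 against WT M1 (right), with the median of each list in red and the median of all genes tested as a dashed line. The amino acid list has its median at 1.21 on the left and at 0.64 on the right, and the ER chaperones have theirs at −0.33 on the right.

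The genes whose level ran most like a member over the 12 arrays, among 12109 genes well above background on all of them, are given as a description, since the arrays share cultures, mice and slides. For *Atf4* they were *Atp6v0c* (r = 0.967), *Chac1* (r = 0.966) and *Slc3a2* (r = 0.965). For *Hspa5* they were *Pdia6* (r = 0.991), *Hsp90b1* (r = 0.984) and *Acin1* (r = 0.959), the first 2 being ER chaperones. For *Ddit3* they were *Plau* (r = 0.907), *Psph* (r = 0.901) and *Impact* (r = 0.883), and for *Xbp1* *Mus81* (r = 0.952), *Samd10* (r = 0.949) and *Sh2b3* (r = 0.947). Among the members, *Atf4* ran with *Trib3* (r = 0.938) and *Asns* (r = 0.932) but less with *Ddit3* (r = 0.375), and *Ddit3* ran against *Hspa5* (r = −0.818).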

How the data were processed

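The RNA of 12 samples, labelled with Cy3, was measured on Agilent mouse arrays of 1 colour. Spots were extracted with Agilent Feature Extraction 10.7.3.1, per the file headers, and the authors deposited the intensity of 43379 spots per array after subtraction of the background, not scaled between arrays. The deposited matrix of log2 values, made by the authors with GeneSpring, was used as an alternative. It equals the log2 intensity less the 75th percentile of the array, centred on the median of each probe.

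Outlier spots were left out, spots of a probe were averaged, and 26690 of 41174 probes were matched to gene symbols through RefSeq accessions (GRCm38.p6), which served for names because the array was designed on another build. Each gene was read from its brightest probe. A gene was kept if its signal was well above background throughout 1 or more groups, and the 22367 kept were fitted with limma 3.58.1 in R 4.3.3, as 6 groups plus culture, with 5 residual degrees of freedom and Benjamini-Hochberg adjustment over all genes tested. The design text pairs the arrays by culture. Deviations from the group means correlated at 0.162 to 0.597 in 15 pairs of groups. With culture in the model, the p-values rest on how far the differences between groups disagreed between the 2 cultures. The number of arrays limits the precision. The members, the gene lists and the tests were chosen with earlier results of these data known. Besides the members, the text names *Keap1* and *Nqo1*, genes with the largest rise or fall past the test in a list and comparison, and the 3 genes most like a member. The model was also run on simulated data built from the fitted means and spreads of these arrays. The simulated errors were independent, so that run checks the code and not how mice or cultures vary. Alternatives were quantile normalization, normexp background correction with an offset of 50 on median intensities, the authors' matrix, other filters, a floor, the mean of a gene's probes, models without culture, with mouse as a random block, with other variances or only the groups compared, each array left out, and the methods' unpaired t-test. Plots were made with matplotlib 3.10.9 in Python 3.11.15.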

Additional observations from a re-analysis of the deposited data

Results flagged for a closer look

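*Asns* differed in opposite directions between the genotypes in M1 and M2 in both cultures. KpCKO minus WT was 0.39 and 0.63 in M1 and −0.06 and −0.33 in M2, so that the M2 difference was lower by a log2 difference of −0.71 on average. The difference between M1 and M2 was not tested, and neither genotype difference passed limma's test on its own.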

How the results depend on the processing

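For the 10 members in 11 comparisons, 1978 values were computed under alternatives, of which 1827 kept their direction and side of the threshold or were not called in either setting, 119 lost a call, 31 gained a call and 1 reversed, the *Hspa5* response of WT M1 at −0.134 with quantile normalization. In 83 cases a value that was not called changed sign. Members called, from 5 in WT M1 and 5 in KpCKO M1, were 1 and 3 with no replicate block (no pairing by culture), 0 and 0 by the methods' t-test after adjustment, and 0 and 1 without adjustment. In WT M2, from 1, they were 2 with quantile normalization, the floor or only the groups compared, 3 with the filter on all 12 arrays or trended and robust variances, and 0 with normexp, no filter, no replicate block or the adjusted t-test. In KpCKO M2, from 0, the unadjusted t-test gave 2, and in KpCKO against WT in Con and M2, from 0, it gave 1 each. For KpCKO against WT in M1, from 4, they were 0 with normexp, no replicate block, only the groups compared or the t-test with and without adjustment, and 1 with no filter. Over all stimuli, from 4, they were 1 with normexp, no replicate block or the unadjusted t-test, 2 with no filter and 0 by the adjusted t-test. Leaving out 1 array at a time gave 4 to 6 members in WT M1, 4 to 8 in KpCKO M1 (8 without the KpCKO M1 array of culture 2), 0 to 1 in WT M2, 0 to 4 for KpCKO against WT in M1, 0 to 5 over all stimuli and 4 to 5 for the cultures. A group left with 1 array was assumed to vary like the others. The culture comparison kept 4 or 5 calls under each alternative run. For the comparison over all stimuli and that of the cultures, the fit on only the groups compared is the reported one, and the t-test was not run for interactions or cultures.

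Of all genes tested, KpCKO against WT in M1 called 3578, between 0 with only the groups compared and 4355 with the floor, and the split of 1657 higher and 1921 lower became 2030 and 1352 with quantile normalization. The M1 response called 14132 in WT and 11228 in KpCKO, and as few as 2948 and 0 by the adjusted t-test. The M2 response called 3764 and 2280, and 2 and 0 by that test. KpCKO against WT called 495 in Con and 431 in M2, and 0 in both with only the groups compared, and 3837 over all stimuli, with 175 by the t-test. The interaction in M1 called 16, between 0 with normexp and 537 without the WT M1 array of culture 1. Where calls changed, the cause was not tested. Precision was limited by 2 arrays in a group, and each member's signal was well above background on the arrays used.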
